A study of Mus musculus with 21 samples.

Results

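Polycomb and trithorax genes were followed through early differentiation of mouse embryonic stem cells (ESCs) as 36 named genes, which is 36 of the 32285 genes listed for the time course and 36 of the 25239 listed for a separate Cyp26a1 set. They comprised 9 genes of Polycomb repressive complex 2 (PRC2), 19 of PRC1, 2 of the Polycomb deubiquitinase PR-DUB, and 6 of the trithorax side, with which both H3K27 demethylases were grouped. The members were listed by name, with earlier results of these data known. All 36 were found in every one of the 21 libraries, and all 36 passed the filter on low values in both sets.

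The assay was RNA-seq of polyadenylated RNA in 7 groups of 3 libraries. The wild-type time course held 15 libraries. ESC_0h was the undifferentiated culture on gelatin in serum with LIF and 2i, the MEK inhibitor PD0325901 and the GSK3 inhibitor CHIR99021. In noRA_12h and noRA_24h, LIF and 2i had been withdrawn for 12 h or 24 h. RA_12h and RA_24h had received 2 µM retinoic acid (RA) for the same times, and the labels do not state whether these cells also lost LIF and 2i. The Cyp26a1 set compared wild-type ESCs (Cyp26a1_WT) with Cyp26a1 knockout ESCs (Cyp26a1_KO), 3 libraries each, all 24 h after LIF and 2i withdrawal with 2 µM RA. Cyp26a1 encodes the enzyme that clears RA. The labels name neither a knockout clone nor an ESC line. Cells held with LIF and 2i up to 12 h or 24 h were not among the groups, and withdrawal and time in culture cannot be told apart. The titles number the replicates without a statement that they came from separate cultures. What the p-values measure is thus the spread of these libraries alone, and it may be technical.

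Polycomb complexes keep developmental genes silent, and trithorax proteins oppose them. PRC2 methylates histone H3 at lysine K27 through Ezh1 or Ezh2, PRC1 ubiquitinates histone H2A through Ring1 or Rnf2, and PR-DUB removes that ubiquitin. PRC1 exists in canonical forms, built on Phc subunits and on Cbx subunits that recognise the PRC2 mark. Variant forms carry Rybp or Yaf2 in place of a Cbx subunit. The Pcgf subunit sets the form. The trithorax members methylate H3 at K4 (Kmt2a to Kmt2d) or remove the K27 mark (Kdm6a and Kdm6b). In ESCs these complexes hold genes of later lineages in a poised state, and RA is a classical signal that releases part of them.

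Promoter sequence was shown for 4 members whose levels moved with the treatments, Phf19 and L3mbtl2, which were higher after withdrawal, and Phc2 and Cbx8, which were lower after withdrawal and higher with RA at 24 h in comparisons that share the noRA_24h libraries. The sequences are the bases just upstream of the start of each gene in RefSeq (build GRCm38.p6), written 5′ to 3′ on the strand of the gene. Bases that lie inside the gene as the deposited tables place it were left out, which removed 50 bases for Phf19 and 56 for Cbx8. The windows were chr2:34914027-34914226 (minus strand) for Phf19, chr15:81663639-81663888 (plus strand) for L3mbtl2, chr4:128654452-128654701 (plus strand) for Phc2 and chr11:119040970-119041163 (minus strand) for Cbx8. Capitals mark the E-box CACGTG, the only searched motif that occurs in these 4 windows.
Phf19: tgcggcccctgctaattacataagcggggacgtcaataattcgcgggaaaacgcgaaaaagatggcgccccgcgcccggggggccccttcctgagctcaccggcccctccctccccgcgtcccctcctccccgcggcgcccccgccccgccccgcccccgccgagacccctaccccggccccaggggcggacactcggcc
L3mbtl2: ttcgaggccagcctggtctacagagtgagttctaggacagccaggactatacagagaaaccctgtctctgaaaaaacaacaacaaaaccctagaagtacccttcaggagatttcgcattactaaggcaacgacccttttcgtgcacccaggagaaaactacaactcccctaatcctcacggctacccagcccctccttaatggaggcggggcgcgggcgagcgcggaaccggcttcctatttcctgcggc
Phc2: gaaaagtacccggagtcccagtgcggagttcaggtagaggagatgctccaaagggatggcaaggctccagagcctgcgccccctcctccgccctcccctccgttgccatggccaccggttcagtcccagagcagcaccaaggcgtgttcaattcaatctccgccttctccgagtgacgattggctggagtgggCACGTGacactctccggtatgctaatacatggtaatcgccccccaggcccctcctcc
Cbx8: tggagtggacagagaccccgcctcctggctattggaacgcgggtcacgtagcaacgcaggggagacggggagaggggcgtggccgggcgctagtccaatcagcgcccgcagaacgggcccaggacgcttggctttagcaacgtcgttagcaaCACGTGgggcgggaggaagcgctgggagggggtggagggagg

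A RefSeq window of 250 bases upstream of the start was matched for 30 of the 36 members, and Rybp, Kdm6b, Kmt2b, Cbx2, Yaf2 and Pcgf1 had no entry. These windows were rich in CpG, with a median of 21.5 CpG against 6 over all 32851 windows of the table. Both strands were searched for 5 motifs. CACGTG occurred in 8 of 30 members (26.7%), namely Bap1, Bmi1, Cbx6, Cbx8, Kdm6a, Pcgf2, Phc2 and Phc3, against 6.02% of all windows and 10.1% of the 5896 windows with at least 20 CpG. Among the 18 members with at least 20 CpG it occurred in 4. The nuclear receptor half-site AGGTCA, the class of element that RA receptors bind in pairs, occurred in 4 members (13.3%, against 14% of all windows), Kdm6a, Pcgf2, Phc3 and Phf1, and in 1 of the 18 CpG-rich members against 6.28% of CpG-rich windows. CTTTGA, the core of the TCF/LEF motif, occurred in 3 members (10%, against 13.8%), and in 2 of the 18 against 4.44%. TTCNNNGAA, the STAT palindrome, occurred in 3 members (10%, against 7.02%), and in 1 of the 18 against 2.92%. ATGCAAAT, the octamer, occurred in 0 of 30 (against 1.60%, and 0.645% of CpG-rich windows). For 7 members (Cbx6, Cbx7, Ezh2, Jarid2, Kdm2b, Pcgf2 and Phc1) the whole window lies inside the gene as the deposited tables place it, and for 9 others a part of it does. Without those 7, CACGTG occurred in 6 of 23. A match describes letters in a window and not a bound site.

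Levels are given in TPM (a transcript abundance with the same sum in every library), and are scaled for gene length. Changes are differences of log2(TPM + 1), which understate the change of low genes, with their standard error (SE) and the Benjamini-Hochberg adjusted p from limma over all genes tested in that set. A change passed at an adjusted p below 0.05. Folds are ratios of group mean TPM. Because the sets were quantified against different annotations, levels were never compared between them.

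Aligned sequence per library was 2.96 to 3.91 gigabases for the time course. For the Cyp26a1 set it was 2.72 to 3.24 gigabases. The labelled cell type matched its markers: all 10 ESC markers stood at 1 TPM or more in every library. Cyp26a1 stood at 585, 606 and 592 TPM in Cyp26a1_WT and at 4.62, 4.03 and 4.93 TPM in Cyp26a1_KO. In the time course it ranged from 0 to 0.961 TPM without RA and from 119 to 336 TPM with RA. Some libraries stood apart from their own group, most of all noRA_12h library 1, RA_24h library 2 and Cyp26a1_KO library 3, and the results that rest on them are given with and without them. The noRA_12h libraries 1 to 3 stood at 31.8, -43.5 and -13.5 on the axis of within-group differences, the main direction in which libraries of 1 group differed. Library 2 of noRA_12h thus also lay far from its group, on the other side.

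Withdrawal of LIF and 2i for 12 h raised 8 of the 36 members and lowered 6. Over all genes tested, 22% rose and 20.4% fell, and 42.5% changed in either direction, so the members' shares were near the background. Risers came from PRC2 accessory subunits (Phf19, Jarid2), from subunits of variant PRC1 (Kdm2b, L3mbtl2), from PR-DUB (Asxl1) and from canonical PRC1 (Phc1, Cbx6, Cbx7). Those that fell were Pcgf1, Cbx8, Pcgf5, Phc2, Yaf2 and Ezh1. By complex, PRC2 had 2 higher, 1 lower and 6 not past the threshold, PRC1 had 5, 5 and 9, PR-DUB had 1, 0 and 1, and none of the 6 trithorax members passed. The median change of the members was -0.07, and that of all genes tested was -0.04. Of the 14 calls 10 held in all planned settings that tested the gene (a filter on the mean level left out Cbx8), and those of Ezh1, Pcgf5, Cbx7 and Yaf2 did not. Markers of other cell types moved with withdrawal: the 8 primitive endoderm markers summed to 68.1 to 81.6 TPM in ESC_0h, 8.49 to 10.5 TPM in noRA_12h and 5.70 to 6.44 TPM in noRA_24h. Most of that sum in ESC_0h was Lama1, at 77.5, 65.6 and 74.6 TPM, against 3.37, 3.68 and 3.05 TPM in noRA_24h. At low levels, Gata4 and Pdgfra were also lower in noRA_24h, while Gata6, Sox7 and Dab2 were higher and Sox17 and Foxa2 overlapped. The summed level of the 7 feeder fibroblast markers went the other way, from 6.42 to 8.31 TPM in ESC_0h to 11.5 to 14.5 TPM in noRA_12h and 15.0 to 18.1 TPM in noRA_24h, with Lum listed at 0 in all 3 groups. Most of that sum was Thy1, at 4.32, 4.84 and 4.78 TPM in ESC_0h and 12.9, 12.9 and 14.05 TPM in noRA_24h. At low levels, Dcn and Postn were also higher in noRA_24h, while Col1a1 and Col3a1 overlapped. Col1a2 fell, from 1.09, 1.48 and 1.78 TPM to 0.118, 0.458 and 0.939 TPM. The sums of the 6 trophoblast markers overlapped, at 43.8 to 49.2, 43.2 to 57.9 and 45.4 to 49.0 TPM, with Elf5 listed at 0 in ESC_0h. Single markers moved in both directions: Cdx2 fell from 6.54, 5.54 and 4.86 TPM in ESC_0h to 0, 0.239 and 0.319 TPM in noRA_24h. Krt8 also fell, while Krt18 rose from 11.7, 11.3 and 9.58 TPM to 24.7, 24.9 and 27.7 TPM. Gata3 and Hand1 rose at low levels. The part of these cell type markers in the withdrawal results was not tested.

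At 24 h after withdrawal 10 members were higher and 10 lower than in ESC_0h, against 25.4% and 26.5% of all genes tested (51.9% in either direction). PRC2 had 3 higher and 2 lower, PRC1 6 and 6, PR-DUB 1 and 1, and the trithorax members 0 and 1. The median change of the members was 0.04, beside 0.03 for all genes tested. Of the 20 calls 16 held in all planned settings that tested the gene (a filter on the mean level left out Cbx8), and those of Phf1, Ring1, Pcgf3 and Rybp did not. Both withdrawal comparisons share the ESC_0h libraries.

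**Figure D1:**
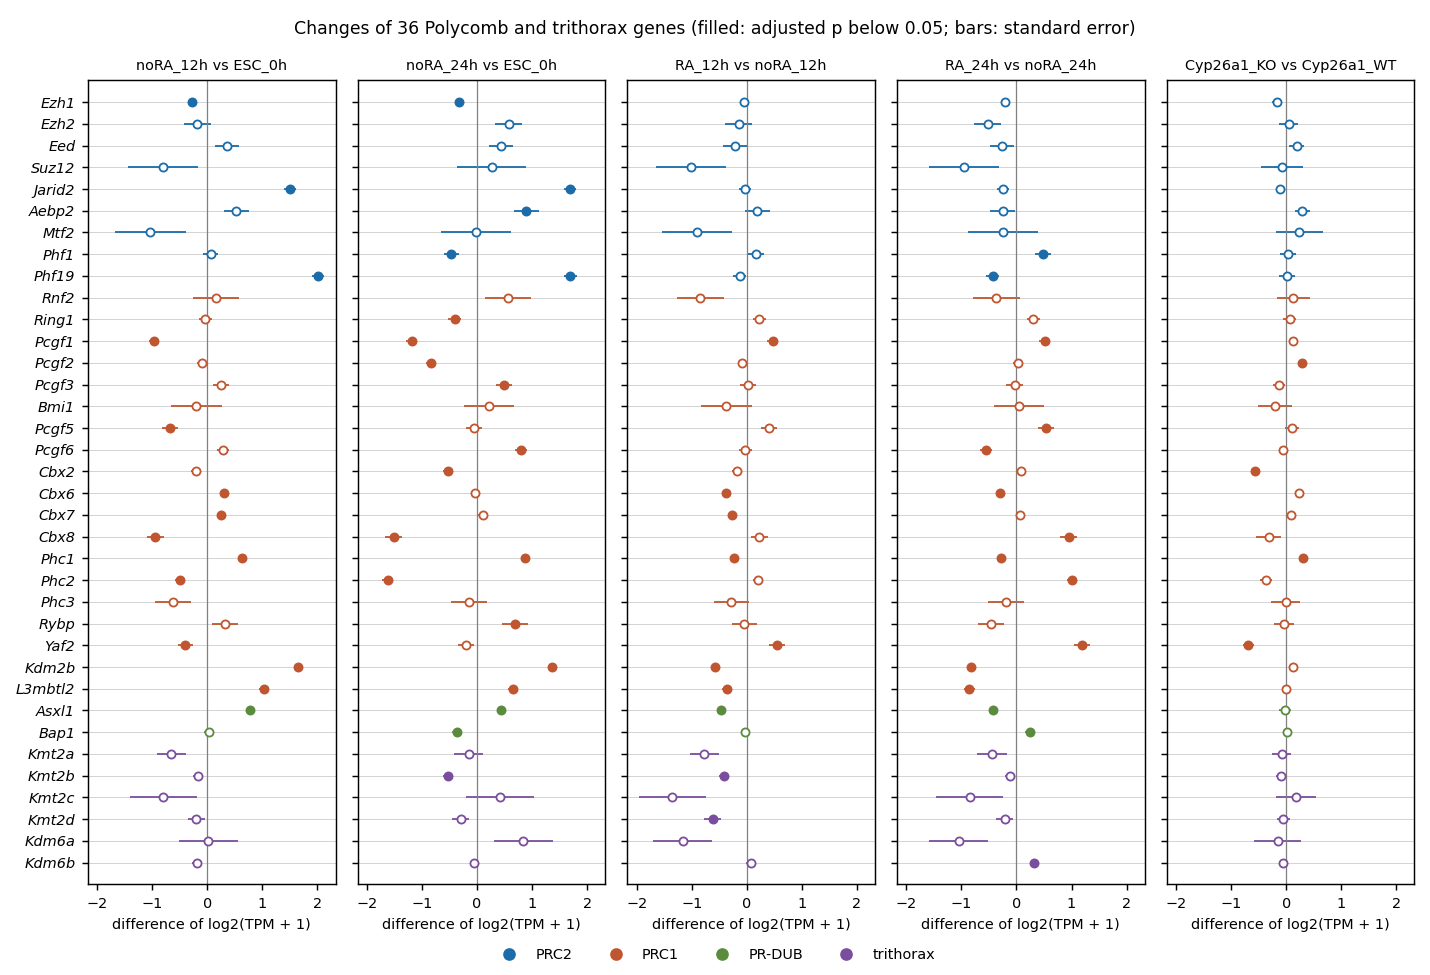
Differences of log2(TPM + 1) for all 36 members in 5 comparisons, with standard errors as bars and filled points for an adjusted p below 0.05. Phf19, Jarid2 and Kdm2b lie farthest to the right after withdrawal, Phc2, Cbx8 and Pcgf1 farthest to the left at 24 h, and Suz12, Mtf2, Kmt2c and Kdm6a carry the widest error bars in the time course.

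Among PRC2 genes, Phf19 (ENSMUSG00000026873, mm10 chr2:34893757-34914026, minus strand) had the largest rise of any member at both times after withdrawal. Phf19 encodes a Polycomb-like subunit that helps PRC2 engage chromatin. It stood at 3.06, 2.55 and 2.30 TPM in ESC_0h, at 12.2, 15.4 and 13.4 TPM in noRA_12h, then at 11.4, 10.9 and 9.89 TPM in noRA_24h. The ESC_0h libraries were all below every library taken after withdrawal. The mean was 5.18-fold higher at 12 h (2.01 ± 0.12 on the log2 scale, limma adjusted p = 1.52e-08) and 4.07-fold higher at 24 h (1.69 ± 0.12, adjusted p = 5.69e-08).

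Jarid2 (ENSMUSG00000038518, mm10 chr13:44729474-44921643, plus strand), an accessory subunit that recruits PRC2 and stimulates it, rose from 86.2, 76.9 and 90.6 TPM in ESC_0h to 261, 212 and 253 TPM in noRA_12h. At 24 h its libraries stood at 276, 301 and 246 TPM. No library after withdrawal overlapped ESC_0h. These are changes of 2.86-fold at 12 h (1.5 ± 0.11, limma adjusted p = 1.72e-07) and 3.24-fold at 24 h (1.68 ± 0.11, adjusted p = 3.92e-08). Aebp2, the partner of Jarid2 in the same PRC2 form, stood at 24.1, 29.3 and 30.3 TPM in ESC_0h and at 55.9, 52.5 and 48.6 TPM in noRA_24h. It passed only at 24 h (0.89 ± 0.23, limma adjusted p = 0.00509), and at 12 h its libraries of 53.5, 28.4 and 43.5 TPM overlapped ESC_0h.

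Of the catalytic pair, Ezh1 passed at both times. Ezh1, the methyltransferase with the weaker activity, stood at 21.1, 21.1 and 21.8 TPM in ESC_0h, 19.2, 16.8 and 16.5 TPM in noRA_12h and 17.1, 17.7 and 15.8 TPM in noRA_24h, with no overlap. It fell at 24 h by 0.33 on the log2 scale (SE 0.08, limma adjusted p = 0.00262). Ezh2 stood at 94.5, 111 and 129 TPM in ESC_0h and at 174, 163 and 160 TPM in noRA_24h. These Ezh2 groups did not overlap, and the change of 0.58 ± 0.24 did not pass (limma adjusted p = 0.064). As a share of the summed Ezh1 and Ezh2 level, Ezh1 took 16.2% in ESC_0h and 9.24% in noRA_24h. The core subunits Eed, which reads the K27 mark, and Suz12, the scaffold, did not pass in either withdrawal comparison. Phf1, another Polycomb-like subunit, fell at 24 h by 0.47 (SE 0.14, limma adjusted p = 0.0115), but 39.3% of its exonic bases overlap Cuta on the other strand and strand use is not stated, so its level is uncertain.

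In PRC1, the partners Kdm2b and Pcgf1 changed in opposite directions. Kdm2b (ENSMUSG00000029475, mm10 chr5:122870665-122989823, minus strand) binds unmethylated CpG islands and brings the Pcgf1 form of PRC1 to them. Its libraries stood at 82.9, 72.6 and 79.8 TPM in ESC_0h, 246, 237 and 263 TPM in noRA_12h and 203, 215 and 190 TPM in noRA_24h. All 6 libraries after withdrawal were above all 3 of ESC_0h. The rise was 3.17-fold at 12 h (1.65 ± 0.07, limma adjusted p = 9.5e-10) and 2.58-fold at 24 h (1.36 ± 0.07, adjusted p = 4.47e-09).

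Pcgf1 (ENSMUSG00000069678, mm10 chr6:83077869-83080855, plus strand), its RING-finger partner, moved down. It stood at 53.1, 57.5 and 54.3 TPM in ESC_0h, at 26.9, 26.2 and 29.8 TPM in noRA_12h, then at 22.6, 25.5 and 22.6 TPM in noRA_24h. The lowest ESC_0h library was well above the highest library after withdrawal. The mean was 1.99-fold lower at 12 h (-0.97 ± 0.10, limma adjusted p = 3.62e-06) and 2.33-fold lower at 24 h (-1.19 ± 0.10, adjusted p = 3.61e-07).

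L3mbtl2 (ENSMUSG00000022394, mm10 chr15:81663889-81688315, plus strand), a subunit of the Pcgf6 form of PRC1, stood at 118, 98.3 and 117 TPM in ESC_0h, 214, 235 and 230 TPM in noRA_12h and 182, 175 and 167 TPM in noRA_24h. The groups did not overlap. The mean was 2.04-fold higher at 12 h (1.03 ± 0.09, limma adjusted p = 1.45e-06) and 1.57-fold higher at 24 h (0.65 ± 0.09, adjusted p = 6.66e-05). Of its exonic bases, 17.2% overlap Chadl on the other strand, beside 5.77% of those of Kdm2b with Rnf34 and 6.93% of those of Mtf2 with Tmed5. Pcgf6, the RING-finger subunit of the same form, passed at 24 h, from 36.5, 38.3 and 37.9 TPM to 64.9, 65.7 and 68.3 TPM (0.80 ± 0.11, limma adjusted p = 4.47e-05).

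Other Pcgf subunits moved in both directions. Pcgf2, which with Bmi1 makes the canonical forms, stood at 127, 114 and 130 TPM in ESC_0h and at 72.5, 63.0 and 69.7 TPM in noRA_24h, a fall of 0.84 on the log2 scale (SE 0.08, limma adjusted p = 1.81e-06). Its paralog Bmi1 was low, at 3.22 to 6.06 TPM in ESC_0h and 3.96 to 6.51 TPM in noRA_24h, with overlap and no call. Pcgf5 fell at 12 h by 0.68 (SE 0.15, limma adjusted p = 0.00191), a call that ended (-0.28, adjusted p = 0.458) once GC content and length were corrected for. Pcgf3 rose at 24 h by 0.49 ± 0.15 (limma adjusted p = 0.0151), a call lost without ESC_0h library 1. Of the summed Pcgf level, Pcgf2 held 49.7% in ESC_0h and 34.7% in noRA_24h, while Pcgf6 held 15.1% and 33.6% and Pcgf1 22.2% and 12%.

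Among the Phc subunits of canonical PRC1, Phc2 fell and Phc1 rose. Phc2 (ENSMUSG00000028796, mm10 chr4:128654702-128752881, plus strand), a Polyhomeotic protein that links PRC1 complexes into assemblies, stood at 37.6, 32.2 and 32.6 TPM in ESC_0h, 24.4, 24.3 and 22.7 TPM in noRA_12h and 10.6, 11.8 and 8.90 TPM in noRA_24h. The 3 groups formed a descending order without overlap. Phc2 was 1.43-fold lower at 12 h (-0.50 ± 0.09, limma adjusted p = 0.000799) and 3.28-fold lower at 24 h (-1.63 ± 0.09, adjusted p = 1.18e-08). Phc1 (ENSMUSG00000040669, mm10 chr6:122317731-122340561, minus strand), the main Polyhomeotic gene of ESCs, had 195, 173 and 193 TPM in ESC_0h, 290, 291 and 284 TPM in noRA_12h and 346, 346 and 336 TPM in noRA_24h. It was 1.54-fold higher at 12 h (0.62 ± 0.05, limma adjusted p = 6.22e-07) and 1.83-fold higher at 24 h (0.87 ± 0.05, adjusted p = 1.69e-08). Phc3 was listed at 1.88, 3.26 and 4.04 TPM in ESC_0h and did not pass in any comparison. The share of Phc2 in the summed Phc level was 15.2% ± 0.920 (SD, n = 3) in ESC_0h and 2.92% ± 0.350 in noRA_24h.

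Cbx8 (ENSMUSG00000025578, mm10 chr11:119036305-119040969, minus strand), a chromodomain subunit, was low throughout. It stood at 4.12, 3.67 and 4.31 TPM in ESC_0h, 1.15, 1.85 and 1.88 TPM in noRA_12h and 0.992, 0.495 and 0.821 TPM in noRA_24h. Every library after withdrawal was below every ESC_0h library. The mean was 2.48-fold lower at 12 h (-0.95 ± 0.15, limma adjusted p = 0.00021) and 5.24-fold lower at 24 h (-1.52 ± 0.15, adjusted p = 2.37e-06). Cbx2, which lies 5034 bases from Cbx8 on chromosome 11, stood at 26.6, 22.6 and 23.7 TPM in ESC_0h and 15.9, 16.5 and 16.7 TPM in noRA_24h, a fall of 0.54 (SE 0.08, limma adjusted p = 0.000105).

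Cbx7, the most abundant Cbx subunit of ESCs, stood at 111, 103 and 112 TPM in ESC_0h, 126, 144 and 121 TPM in noRA_12h and 112, 118 and 121 TPM in noRA_24h. It rose at 12 h by 0.25 ± 0.08 (limma adjusted p = 0.0176), a call lost without ESC_0h library 2 or noRA_12h library 2. Cbx6, its neighbour on chromosome 15, stood at 30.8, 29.0 and 31.3 TPM in ESC_0h and at 36.7, 40.8 and 35.9 TPM in noRA_12h (0.31 ± 0.07, limma adjusted p = 0.00481). At 24 h neither passed. Cbx7 held 65.0% of the summed Cbx level in ESC_0h and 71.5% in noRA_24h, and Cbx8 held 2.41% and 0.473%. These shares describe RNA and were not tested.

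Of the catalytic RING pair, Rnf2 was the more abundant, at 29.2, 37.7 and 46.5 TPM in ESC_0h against 11.6, 10.9 and 11.9 TPM for Ring1. Ring1 fell at 24 h to 8.62, 7.82 and 8.84 TPM (-0.40 ± 0.12, limma adjusted p = 0.0122). Rnf2 stood at 54.2, 48.7 and 63.7 TPM in noRA_24h, above all ESC_0h libraries, and did not pass (0.56 ± 0.42, adjusted p = 0.296). Rybp, which variant PRC1 carries in place of a Cbx subunit, rose at 24 h by 0.69 ± 0.23 (limma adjusted p = 0.0242), and that call was lost without ESC_0h library 1 or 2 and without any 1 of the noRA_24h libraries. Its paralog Yaf2 fell at 12 h by 0.40 (SE 0.14, limma adjusted p = 0.0365), a call lost without ESC_0h library 2 or 3 and without noRA_12h library 2 or 3.

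PR-DUB was represented by Asxl1, its activating subunit, and Bap1, its ubiquitin hydrolase. Asxl1 stood at 40.4, 37.7 and 41.8 TPM in ESC_0h, 73.2, 65.4 and 69.6 TPM in noRA_12h and 55.4, 55.8 and 51.6 TPM in noRA_24h. It was 1.74-fold higher at 12 h (0.78 ± 0.06, limma adjusted p = 2.93e-07) and 1.36-fold higher at 24 h (0.43 ± 0.06, adjusted p = 5.33e-05). Bap1 stood at 96.4, 90.7 and 89.9 TPM in ESC_0h and 74.4, 71.0 and 68.6 TPM in noRA_24h, a fall of 0.37 (SE 0.09, limma adjusted p = 0.00344).

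On the trithorax side, Kmt2b, the methyltransferase that marks poised promoters in ESCs, was the only 1 of the 6 genes that passed after withdrawal. It stood at 58.1, 49.3 and 58.7 TPM in ESC_0h and 38.6, 40.5 and 34.4 TPM in noRA_24h, without overlap (-0.54 ± 0.09, limma adjusted p = 0.000193). Kmt2a, Kmt2c, Kmt2d and the demethylases Kdm6a and Kdm6b did not pass at either time. Kdm6a was at 7.47, 7.43 and 13.3 TPM in ESC_0h and 19.6, 13.6 and 18.5 TPM in noRA_24h, and its change of 0.84 had an SE of 0.54 (limma adjusted p = 0.212). Kdm6b stood at 43.2, 36.8 and 42.4 TPM and at 42.4, 39.7 and 35.7 TPM in these groups.

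**Figure D2:**
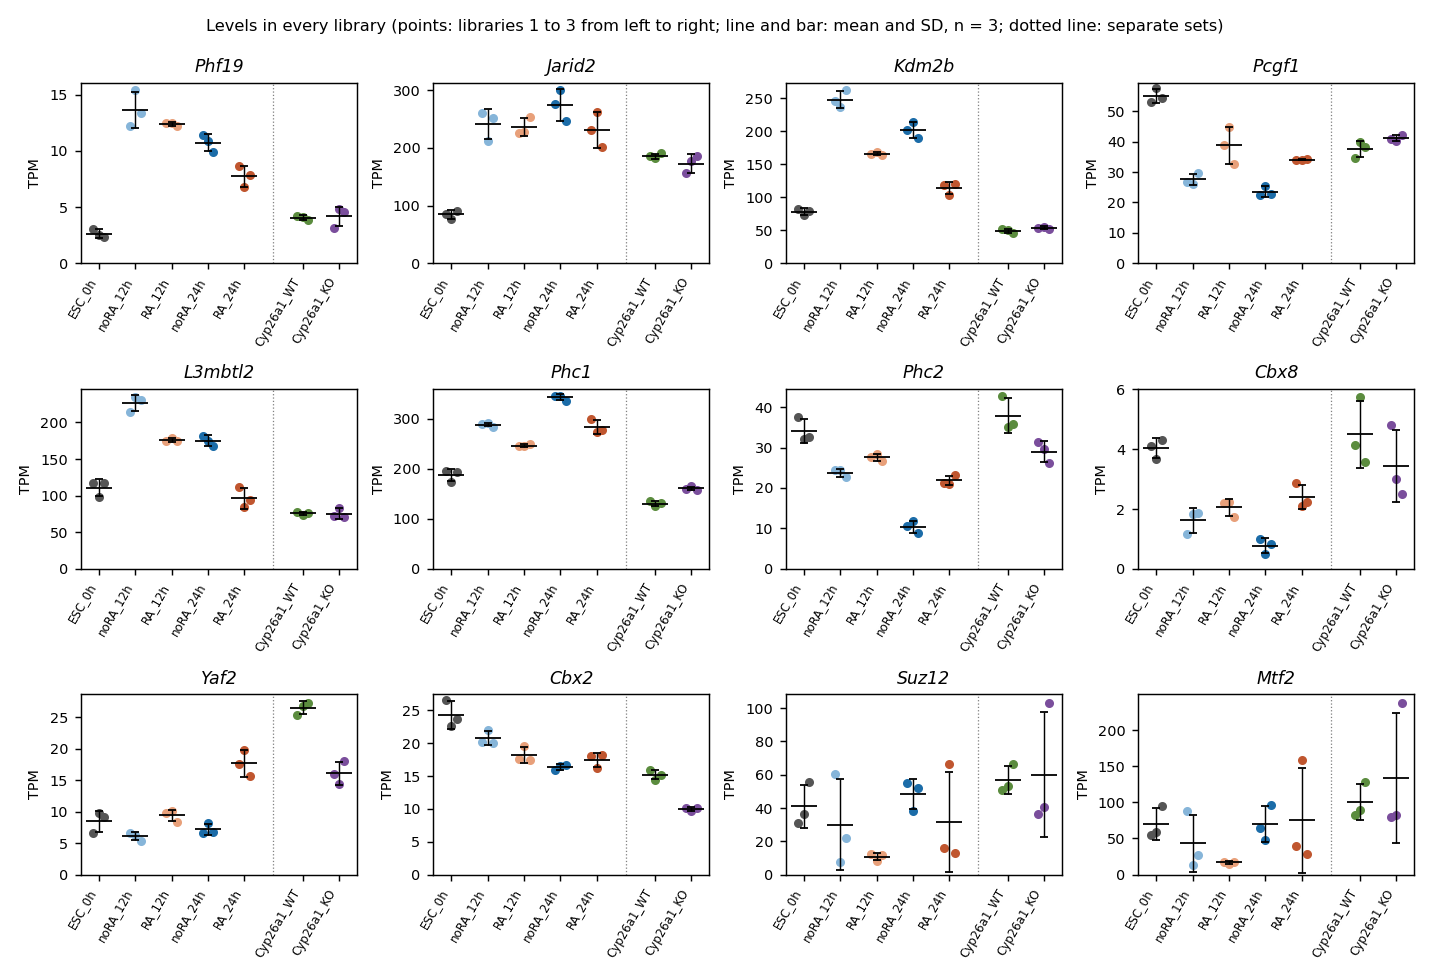
TPM of 12 members in every library, with libraries 1 to 3 from left to right and the mean and SD of each group (n = 3). A dotted line parts the time course from the Cyp26a1 set, whose levels are not comparable. Phc2 and Cbx8 are lowest in noRA_24h, Yaf2 is highest in RA_24h within the time course, and the 3 libraries of noRA_12h, RA_24h and Cyp26a1_KO lie far apart for Suz12 and Mtf2.

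RA for 12 h was compared with noRA_12h. Of the 36 members 2 were higher and 8 lower, against 10.2% and 7.19% of all genes tested (17.4% in either direction). The lower members held 5 of PRC1 (Kdm2b, Cbx6, L3mbtl2, Cbx7 and Phc1), 2 trithorax genes (Kmt2d and Kmt2b) and Asxl1, and none of the 9 PRC2 members passed. The median change of the members was -0.16, and that of all genes tested was -0.01. Of the 10 calls 3 held in all planned settings, those of Kdm2b, Asxl1 and Kmt2b. The RA comparisons use the same noRA libraries as the withdrawal comparisons.

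At 24 h, RA raised 8 members and lowered 7 relative to noRA_24h, against 22.8% and 12.5% of all genes tested (35.2% in either direction). PRC2 had 1 higher (Phf1) and 1 lower (Phf19), PRC1 5 and 5, PR-DUB 1 and 1, and the trithorax members 1 and 0. The median change was -0.23 for the members and 0.02 for all genes tested. Of the 15 calls 9 held in all planned settings that tested the gene (a filter on the mean level left out Cbx8). Those of Phf1, Phf19, Pcgf5, Cbx6, Bap1 and Kdm6b did not. Without RA_24h library 2, which stood apart, 9 were higher and 17 lower, against 28% and 25.9% of all genes tested. The added lower members were Aebp2, Eed, Ezh2, Jarid2, Kdm6a, Kmt2a, Kmt2c, Rnf2, Rybp and Suz12. The noRA_24h libraries stood at 31.5, 23.2 and 39.0 on the axis of within-group differences, and RA_24h libraries 1 and 3 at -16.9 and -29.5. With that axis as a covariate, a setting added to the plan, 11 were higher and 8 lower, against 25.7% and 16.6% of all genes tested. Bmi1, Mtf2 and Rnf2 were then added as higher, and Ezh2 alone was added as lower.

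Markers of other cell types moved with RA. The summed level of 8 primitive endoderm markers was 5.70 to 6.44 TPM in noRA_24h and 148 to 167 TPM in RA_24h, where all 8 stood at 1 TPM or more in every library. At 12 h it was 8.49 to 10.5 TPM without RA and 27.7 to 32.6 TPM with RA. The 6 trophoblast markers summed to 45.4 to 49.0 TPM in noRA_24h and 80.6 to 104 TPM in RA_24h, while the sum of the 7 feeder fibroblast markers was lower, at 15.0 to 18.1 TPM without RA and 5.05 to 6.06 TPM with it. Most of the feeder sum in noRA_24h was Thy1, at 12.9, 12.9 and 14.05 TPM against 2.24, 1.94 and 2.47 TPM in RA_24h. Dcn was also lower with RA at low levels, and Col1a2, Col3a1, Postn and Lum overlapped. Col1a1 went the other way, from 0.312, 0.891 and 0.877 TPM to 1.63, 1.59 and 1.28 TPM. At 12 h the feeder markers summed to 11.5 to 14.5 TPM without RA and 4.53 to 7.98 TPM with it. In bulk RNA, fewer cells of a type and less RNA per cell cannot be told apart, and the part of cell types in the results was not tested.

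Phc2 was higher with RA at 24 h. Its libraries stood at 27.6, 28.4 and 26.7 TPM in RA_12h and 21.3, 21 and 23.2 TPM in RA_24h. At 24 h every RA library was above every noRA_24h library, and all stayed below ESC_0h. The mean was 2.10-fold that of noRA_24h (1.01 ± 0.09, limma adjusted p = 2.82e-06). The RA effect at 24 h exceeded that at 12 h by 0.80 ± 0.13 (limma adjusted p = 0.00254). Phc1 was slightly lower with RA, at 245, 245 and 249 TPM in RA_12h and 300, 273 and 277 TPM in RA_24h, or 1.21-fold lower at 24 h (-0.27 ± 0.05, adjusted p = 0.00122). The share of Phc2 in the Phc sum was 7.12% ± 0.547 (SD, n = 3) in RA_24h beside 2.92% in noRA_24h.

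Cbx8 was at 2.2, 2.25 and 1.74 TPM in RA_12h and 2.86, 2.11 and 2.25 TPM in RA_24h. The RA_24h libraries were all above the noRA_24h libraries, by 3.13-fold in the mean (0.95 ± 0.15, limma adjusted p = 0.000312). Its RA effect did not differ past the threshold between the times (0.72 ± 0.22, adjusted p = 0.0653). Cbx2, at 18.1, 16.3 and 18.2 TPM in RA_24h, did not pass. Cbx6 fell at both times, by 0.38 at 12 h (SE 0.07, limma adjusted p = 0.003) and 0.30 at 24 h (SE 0.07, adjusted p = 0.00747). Cbx7 fell at 12 h (-0.26 ± 0.08, limma adjusted p = 0.034), and that call ended in 10 of the other settings, among them each library of RA_12h left out.

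Yaf2 (ENSMUSG00000022634, mm10 chr15:93284278-93336935, minus strand), the partner subunit of variant PRC1, rose with RA at both times. It stood at 6.64, 9.77 and 9.09 TPM in ESC_0h, 6.6, 8.15 and 6.86 TPM in noRA_24h and 17.6, 19.8 and 15.7 TPM in RA_24h. The RA_24h libraries lay above every other library of the time course. The mean was 2.45-fold that of noRA_24h (1.19 ± 0.14, limma adjusted p = 2.59e-05). At 12 h its RA libraries stood at 9.73, 10.2 and 8.42 TPM against 6.62, 6.38 and 5.43 TPM (0.55 ± 0.14, limma adjusted p = 0.0167), a call lost without noRA_12h library 3 or without RA_12h library 1 or 2. Of the Rybp and Yaf2 sum, Yaf2 held 10.7% ± 1.31 (SD, n = 3) in noRA_24h and 29.0% ± 5.54 in RA_24h, where its lowest share, 22.6%, was in the library in which Rybp stood at 67.7 TPM against 37.3 and 32.6 TPM in the others.

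Kdm2b and L3mbtl2 were lower with RA at both times. Kdm2b stood at 166, 169 and 164 TPM in RA_12h and 119, 104 and 120 TPM in RA_24h, below the matching noRA libraries and above ESC_0h. It was 1.49-fold lower at 12 h (-0.57 ± 0.07, limma adjusted p = 7.57e-05) and 1.77-fold lower at 24 h (-0.82 ± 0.07, adjusted p = 1.37e-06). L3mbtl2 stood at 175, 179 and 174 TPM in RA_12h and 112, 84.0 and 93.8 TPM in RA_24h, which overlapped ESC_0h. Its fall was 1.29-fold at 12 h (-0.36 ± 0.09, limma adjusted p = 0.0179) and 1.81-fold at 24 h (-0.86 ± 0.09, adjusted p = 1.26e-05). The call at 12 h was lost with FPKM in place of TPM and without noRA_12h library 3, RA_12h library 1 or RA_12h library 3. The change between the times was -0.50 ± 0.13 (limma adjusted p = 0.0423), and this call ended when 10 of the 12 libraries were left out in turn, all except RA_24h library 1 and RA_24h library 2.

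Of the Pcgf subunits, Pcgf1 and Pcgf5 were higher and Pcgf6 was lower with RA at 24 h. Pcgf1 was at 38.9, 44.9 and 32.6 TPM in RA_12h and 33.9, 34.0 and 34.3 TPM in RA_24h, above noRA and below ESC_0h at both times (0.47 ± 0.10 at 12 h, limma adjusted p = 0.00451, and 0.51 ± 0.10 at 24 h, adjusted p = 0.00121). Pcgf6 stood at 42.7, 55.1 and 38.1 TPM in RA_24h, below noRA_24h (-0.56 ± 0.11, limma adjusted p = 0.00168). Pcgf5, which with Pcgf3 forms another variant PRC1, stood at 18.8, 17.8 and 15.9 TPM in RA_24h against 11.1, 11.7 and 12.4 TPM in noRA_24h (0.53 ± 0.15, limma adjusted p = 0.012), and its call was lost without RA_24h library 1. Pcgf2 did not pass at either time and had 74.8, 63.1 and 71.1 TPM in RA_24h. Pcgf6 accordingly held 23.1% of the Pcgf sum in RA_24h beside 33.6% in noRA_24h, and Pcgf1 17.5% beside 12%.

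**Figure D3:**
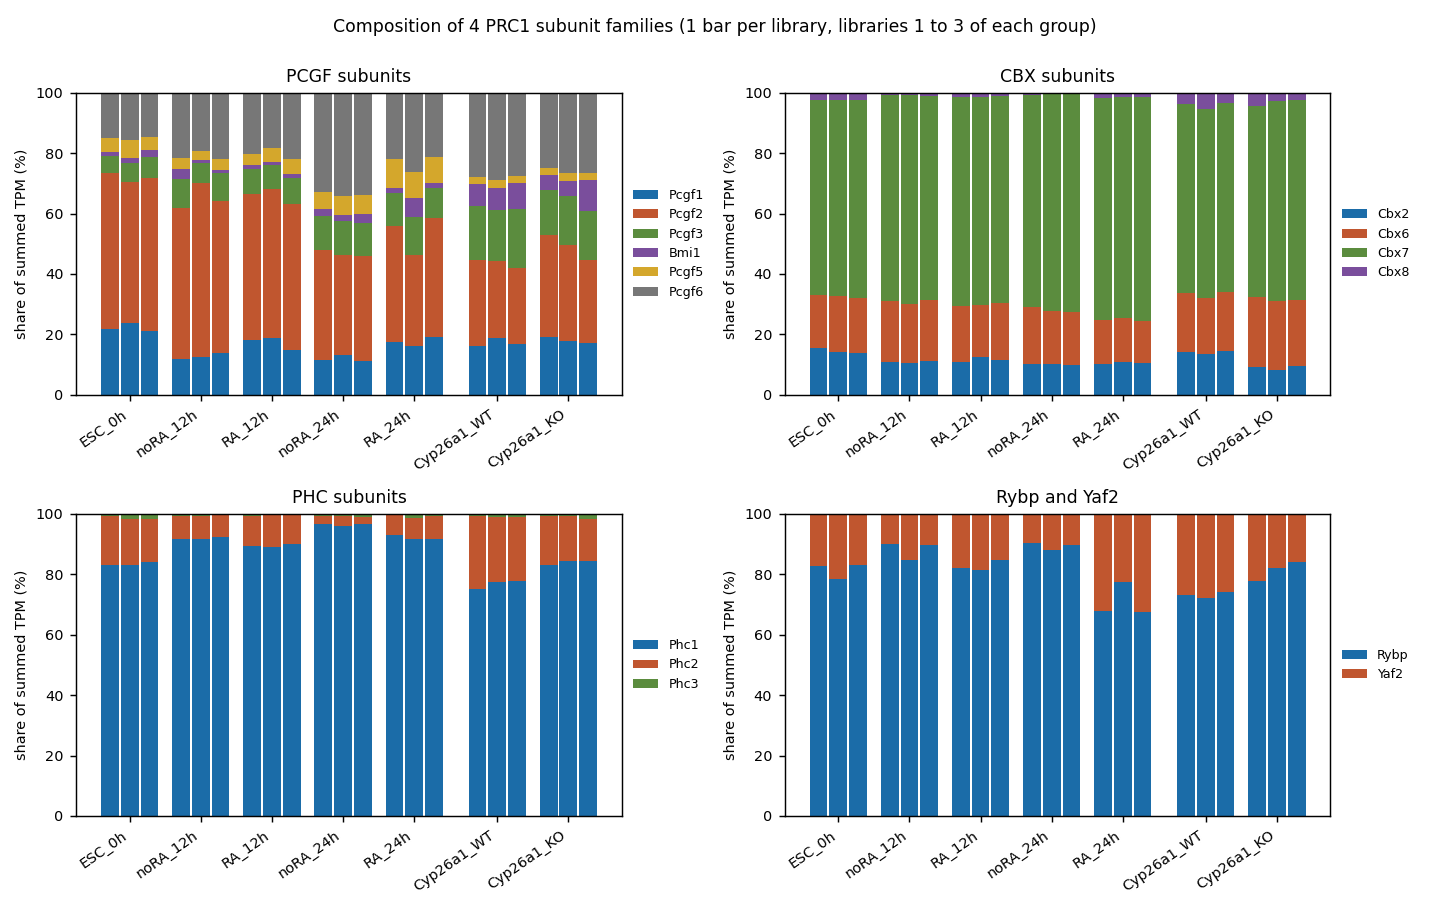
Share of each paralog in the summed TPM of its family, 1 bar per library, for Pcgf, Cbx, Phc and the Rybp and Yaf2 pair. Phc2 narrows from 15.2% of the Phc sum in ESC_0h to 2.92% in noRA_24h and takes 7.12% in RA_24h, and Yaf2 widens to 29.0% of its pair in RA_24h.

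With RA, 0 of the 9 PRC2 members passed at 12 h, and Phf1 and Phf19 passed at 24 h. Phf19 did not pass at 12 h, at 12.5, 12.4 and 12.2 TPM, and at 24 h stood at 8.62, 6.75 and 7.82 TPM, below noRA_24h (-0.43 ± 0.12, limma adjusted p = 0.0111). Jarid2 stood at 227, 228 and 253 TPM in RA_12h and 231, 263 and 201 TPM in RA_24h, overlapped the noRA libraries at both times and did not pass. Phf1 was called higher at 24 h (0.48 ± 0.14, limma adjusted p = 0.0156) and lost the call without noRA_24h library 3 or RA_24h library 3. Ezh1 and Ezh2 did not pass, with Ezh2 at 101, 175 and 85.1 TPM in RA_24h.

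Asxl1 fell with RA at both times, to 50.4, 48.5 and 51.2 TPM in RA_12h and 40.8, 40.1 and 38.9 TPM in RA_24h, the latter within the range of ESC_0h (-0.46 ± 0.06, limma adjusted p = 0.000129, and -0.43 ± 0.06, adjusted p = 0.000112). Bap1 passed higher at 24 h (0.25 ± 0.09, limma adjusted p = 0.0453) although its groups overlapped, and it lost the call when any noRA_24h library, RA_24h library 1 or RA_24h library 3 was left out. Kmt2b fell at 12 h to 33.9, 37.5 and 36.9 TPM, from 49.9, 50.3 and 45.7 TPM in noRA_12h (-0.42 ± 0.09, limma adjusted p = 0.00438). Kmt2d, which with Kmt2c places K4 monomethylation at enhancers, fell at 12 h from 13.2, 8.80 and 10.6 TPM to 6.21, 6.76 and 6.90 TPM (-0.62 ± 0.16, adjusted p = 0.0134), a call lost without noRA_12h library 1 or RA_12h library 1. Kdm6b, a demethylase that removes the K27 mark, was higher at 24 h, at 52.7, 47.4 and 48.2 TPM against 42.4, 39.7 and 35.7 TPM (0.33 ± 0.08, limma adjusted p = 0.00736). Corrected for GC content and length, that call ended (0.10, adjusted p = 0.228). Its paralog Kdm6a stood at 4.82, 20.9 and 4.14 TPM in RA_24h and did not pass.

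Between RA at 12 h and at 24 h, 1 of the 36 members had a larger effect (Phc2) and 1 a lower one (L3mbtl2), against 4.17% and 2.68% of all genes tested (6.85% in either direction). The other 34 did not pass. Without noRA_12h library 1 and RA_24h library 2 together, a setting chosen after the data were seen, the counts were 4 and 8, against 14.3% and 14.8% of all genes tested.

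A group of members could not be resolved because libraries of the same group disagreed. The 10 members that passed in none of the 6 comparisons were Ezh2, Eed, Suz12, Mtf2, Rnf2, Bmi1, Phc3, Kmt2a, Kmt2c and Kdm6a, and their standard errors in the withdrawal and RA comparisons ran from 0.22 to 0.64, beside 0.05 to 0.23 for the other 26. Suz12 stood at 60.5, 7.78 and 22.1 TPM in noRA_12h, at 16.0, 66.4 and 13.0 TPM in RA_24h and at 36.4, 40.4 and 103 TPM in Cyp26a1_KO. Mtf2, a Polycomb-like subunit that brings PRC2 to CpG islands, stood at 88.6, 13.7 and 27.3 TPM, at 39.0, 158 and 28.2 TPM and at 79.9, 82.7 and 238 TPM in the same groups. In each group 1 library was far above the others for both genes. In noRA_12h, 7 members differed more than 2-fold in TPM + 1 between libraries (19.4%, against 13.1% of all genes tested), in RA_24h 9 did (25%, against 15.7%) and in Cyp26a1_KO 6 did (16.7%, against 9.79%). In ESC_0h, RA_12h and Cyp26a1_WT 0 did, and in noRA_24h Mtf2 alone.

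Bmi1, Kdm6a, Kmt2c, Mtf2, Rnf2 and Suz12 were past 2-fold by that measure in all 3 groups, beside Kmt2a in noRA_12h and Ezh2, Phc3 and Rybp in RA_24h. The ratio of noRA_12h library 1 to library 2 was 7.78 for Suz12, 10.9 for Kmt2c and 6.47 for Mtf2. For these genes that is the highest library over the lowest, so its size cannot be set beside the ratios to a mean that follow. RA_24h library 2 exceeded the mean of the other libraries 4.58-fold for Suz12, 5.70-fold for Kmt2c and 4.72-fold for Mtf2, and Cyp26a1_KO library 3 did so 2.69-fold, 3.17-fold and 2.92-fold. Transcripts of the 6 members past 2-fold in all 3 groups had a GC content below the median, with 38.2% for Mtf2, 39.5% for Rnf2, 40.2% for Bmi1, 41.6% for Suz12, 42.5% for Kdm6a and 47.6% for Kmt2c against a median of 50.3% over tested genes. Kmt2a, at 50.6%, was above that median, and its ratio in noRA_12h was 2.60. Across the 36 members, which share each library and its depth, Spearman's rho of the log2 ratio with GC content was -0.74 in noRA_12h, -0.78 in RA_24h and -0.79 in Cyp26a1_KO. The part of GC content, RNA quality or culture in these gaps was not tested. Leaving out noRA_12h library 1 brought Kmt2a, Kmt2c, Mtf2 and Suz12 past the threshold as lower at 12 h of withdrawal, for 8 higher and 10 lower, against 21.9% and 24.1% of all genes tested. Without noRA_12h library 2 instead, Aebp2, Pcgf3 and Pcgf6 were added as higher and Cbx2 as lower, for 10 and 6 (21.1% and 19% of all genes tested). That fit also added Kdm6a, Kmt2a and Kmt2c as lower with RA at 12 h, for 2 higher and 10 lower (10.7% and 8.92% of all genes tested). Leaving out RA_24h library 2 gave Suz12 a change of -1.66 (limma adjusted p = 0.0256) and Ezh2 one of -0.83 (adjusted p = 0.00466) with RA at 24 h. With the axis of within-group differences as a covariate, Ezh2 passed there as lower and Suz12 did not pass.

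**Figure D4:**
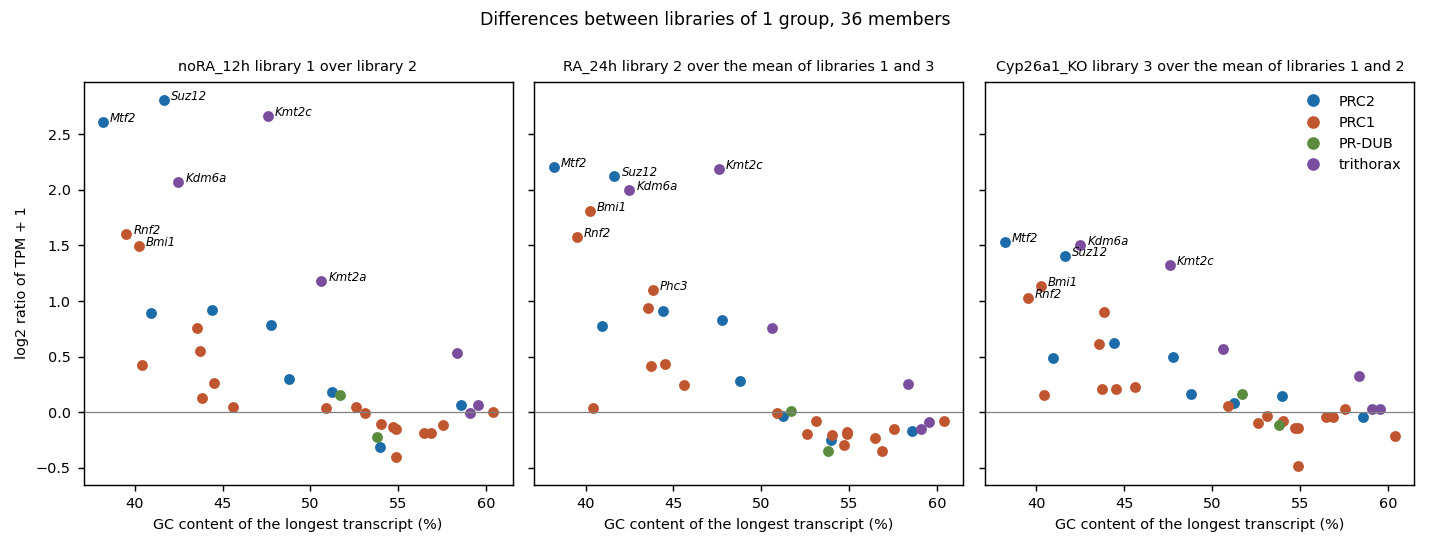
Difference of log2(TPM + 1) between libraries of 1 group against the GC content of the longest transcript, 1 point per member, for the 3 libraries that stood apart. Points rise toward low GC in all 3 panels, with Mtf2, Suz12, Kmt2c and Kdm6a highest and most members above 50% GC near or below 0.

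In the Cyp26a1 set 4 of the 36 members passed between knockout and wild type, a count near the share of all genes tested. Of 36, 2 were higher (Phc1 and Pcgf2) and 2 lower (Yaf2 and Cbx2), all in PRC1, against 3.34% and 6.65% of all genes tested (9.99% in either direction). None of the 9 PRC2, 2 PR-DUB or 6 trithorax members passed. The median change was -0.01 for the members and -0.05 for all genes tested. Each of the 4 calls ended when any 1 Cyp26a1_WT library was left out, so the counts were then 0 and 0. In these fits 0.902% to 0.951% and 1.42% to 1.62% of all genes tested passed. Without Cyp26a1_KO library 3, which stood apart, they were 3 and 5, against 7.73% and 17.2% of all genes tested. With the replicate number as a block the counts were 1 and 3 (3.08% and 5.96% of all genes tested): Pcgf2 was lost (adjusted p = 0.0598) and Phc2 was gained as lower (-0.37, limma adjusted p = 0.0479).

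Yaf2 was at 25.4, 26.9 and 27.3 TPM in Cyp26a1_WT and at 16.0, 14.4 and 18.0 TPM in Cyp26a1_KO, without overlap. The mean was 1.64-fold lower in the knockout (-0.69 ± 0.10, limma adjusted p = 0.00985). Cbx2 (ENSMUSG00000025577, mm10 chr11:119022962-119031270, plus strand) stood at 15.9, 14.5 and 15.2 TPM in Cyp26a1_WT and at 10.2, 9.63 and 10.1 TPM in Cyp26a1_KO, 1.52-fold lower (-0.56 ± 0.08, limma adjusted p = 0.011). Its share of the summed Cbx level was 14% in wild type and 8.98% in the knockout. Phc1 was at 135, 125 and 131 TPM against 159, 165 and 158 TPM, 1.24-fold higher in the knockout (0.30 ± 0.05, limma adjusted p = 0.0171). Pcgf2 stood at 61.1, 54.8 and 57.8 TPM against 72.8, 71.5 and 68.4 TPM, 1.22-fold higher (0.29 ± 0.06, limma adjusted p = 0.0366).

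Phc2, at 42.8, 35 and 35.7 TPM in Cyp26a1_WT and 31.2, 29.6 and 26.1 TPM in Cyp26a1_KO, did not overlap between the groups and did not pass without the block (-0.37, adjusted p = 0.0799). Cbx8 stood at 4.15, 5.76 and 3.57 TPM against 4.82, 3.00 and 2.51 TPM, with overlap. Phf19, Jarid2, Kdm2b and L3mbtl2 did not pass. Kdm2b was at 51.7, 49.7 and 45.4 TPM in wild type and 54.2, 55.4 and 51.1 TPM in the knockout. Markers of primitive endoderm summed to 314 to 337 TPM in Cyp26a1_WT and 125 to 132 TPM in Cyp26a1_KO, those of trophoblast to 133 to 141 and 99.1 to 111 TPM, and ESC markers to 6499 to 6771 and 8292 to 9101 TPM. Their part in the 4 calls was not tested.

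Partner genes of these complexes outside the list were read the same way, 48 in the time course and 47 in the Cyp26a1 set. After withdrawal 15 were higher and 8 lower at 12 h (22% and 20.4% of all genes tested), and 14 and 15 at 24 h (25.4% and 26.5%). With RA 3 were higher and 12 lower at 12 h (10.2% and 7.19%) and 7 and 11 at 24 h (22.8% and 12.5%). In the knockout 2 and 1 passed (3.34% and 6.65%). Setd1b, which methylates H3 at K4, stood at 6.43, 4.68 and 5.63 TPM in ESC_0h and 23.6, 19.1 and 21.2 TPM in noRA_12h (1.76 ± 0.12, limma adjusted p = 6.01e-08). Bcor, the corepressor that joins Kdm2b and Pcgf1 in 1 complex, stood at 28.9, 28.8 and 25.7 TPM in noRA_24h and 12.8, 11.2 and 10.4 TPM in RA_24h, 2.42-fold lower with RA (-1.21 ± 0.09, adjusted p = 3.34e-07). Epop, a PRC2 partner, was at 218, 208 and 208 TPM in noRA_24h and 335, 272 and 343 TPM in RA_24h (0.57 ± 0.10, limma adjusted p = 0.000588). In the knockout Rbbp5 (0.39 ± 0.08, limma adjusted p = 0.0263) and Wdr5 (0.28 ± 0.06, adjusted p = 0.0375), both core subunits of the K4 methyltransferase complexes, were higher and Arid1b, a BAF subunit, was lower (-0.49 ± 0.11, adjusted p = 0.0393).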

How the data were processed

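Gene abundance tables of 21 libraries were used, 1 per library. Per the submitters' processing notes, the authors aligned reads to mm10 with HISAT2 and estimated levels with StringTie, and for neither tool are a version or settings given in the sources used. The tables hold TPM, FPKM and coverage (signal, mean depth per base) as deposited, per the file headers. TPM was analysed, FPKM was an alternative, and the deposited coverage with FPKM gave the aligned gigabases. Per the labels, libraries ran on HiSeq, NovaSeq or MGI2000 instruments, without saying which. No counts were used and strand is not stated.

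Rows of 1 gene were added up. A gene was tested where 3 or more libraries of its set reached 1 TPM (13948 genes for the time course, 12848 for the Cyp26a1 set). The model was limma 3.58.1 under R 4.3.3 (eBayes with a trend) on log2(TPM + 1), the 15 time course libraries in 1 model and the 6 of the Cyp26a1 set in another. Adjusted p-values are Benjamini-Hochberg over all genes tested. The fit was tested on simulated data. Groups came from sample titles. A value listed at 0 may be a failed estimate.

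The members and lists were chosen with earlier results of these data known. Values of every library are given for up to 6 higher and 6 lower members per comparison with the largest change, an adjusted p below 0.05 and no overlap between groups, for paralog pairs and the Cbx and Phc families, and partner genes are limited to 3 in each direction. Other members printed were chosen after their values were seen. Alternatives covered pseudocount, filters, scaling, FPKM, the variance model, the samples fitted, a replicate block, each library left out, and a correction for GC content and length (GENCODE M21, 99.9% and 98.0% of tested genes matched). In the Cyp26a1 set, same-numbered libraries deviated together in all 3 pairs (r 0.189 to 0.536). Differently numbered pairs ran from -0.461 to 0.268, with 2 of 6 over 0.1. Because these ranges overlap, the check cannot settle whether the numbers pair the samples. The labels do not state a pairing. 1 partner gene is not reported here.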

Additional observations from a re-analysis of the deposited data

Results flagged for a closer look

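The effect of RA differed between 12 h and 24 h for 2 of the 36 members, by the test of the difference itself. Phc2 differed by 0.80 on the log2 scale (limma adjusted p = 0.00254), with RA_12h libraries of 27.6, 28.4 and 26.7 TPM against 24.4, 24.3 and 22.7 TPM, and RA_24h libraries of 21.3, 21 and 23.2 TPM against 10.6, 11.8 and 8.90 TPM, and it kept an adjusted p of 0.022 or less in all alternatives run. L3mbtl2 differed by -0.50 (limma adjusted p = 0.0423), being lower with RA at both times and by more at 24 h, and its adjusted p reached 0.101 over the alternatives.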

How the results depend on the processing

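Of 65 calls of members over the 6 comparisons, 39 kept their call and direction in all planned settings that tested the gene: 10 of 14 and 16 of 20 after withdrawal at 12 h and 24 h, 3 of 10 and 9 of 15 with RA, 1 of 2 for the change of the RA effect and 0 of 4 in the knockout. Cbx8, kept after withdrawal at both times and with RA at 24 h, was not tested under the filter of a mean of at least 5 TPM. None reversed in any setting run. The cause was not tested for the shifts below. Leaving out 1 library at a time, the members higher and lower ranged over 7 to 10 and 5 to 10 (noRA_12h against ESC_0h), 8 to 10 and 9 to 11 (noRA_24h against ESC_0h), 1 to 2 and 5 to 10 (RA at 12 h), 6 to 9 and 7 to 17 (RA at 24 h, the 17 without RA_24h replicate 2), 1 to 4 and 0 to 2 (change of the RA effect), and 0 to 3 and 0 to 5 (knockout). Among all genes tested, 19.1% to 21.9% and 16.7% to 24.1% passed for noRA_12h, and 21.5% to 23.8% and 23.2% to 25% for noRA_24h. RA shares were 7.47% to 10.7% and 5.1% to 8.92% at 12 h, and 17.1% to 28% and 9.41% to 25.9% at 24 h. Those of the change were 2.41% to 7.31% and 1.72% to 3.91%, and of the knockout 0.902% to 7.73% and 1.42% to 17.2%. Without both libraries that stood apart (chosen after seeing the data), they were 9 and 13, 14 and 10, 3 and 8, 9 and 20, and 4 and 8 in the time course. All genes tested then gave 25.3% and 32.1%, 32.1% and 30.1%, 9.67% and 8.34%, 29.9% and 29.9%, and 14.3% and 14.8%, in the same order. With the axis of within-group differences as a covariate, also added, 15 and 11 passed at 12 h of withdrawal and 6 higher with RA at 12 h. With RA at 24 h 11 and 8 passed, with 7 and 5 for the change and 7 higher in the knockout. Of all genes tested, 29.4% and 28.2%, 14.9%, 25.7% and 16.6%, 12.5% and 8.53%, and 9.97% did so, in the same order. Corrected for GC content and length, 5 were higher with RA at 12 h, 12 lower with RA at 24 h, 3 and 6 passed for the change, and 4 were higher in the knockout. The matching shares of all genes tested were 11.6%, 21.4%, 5.01% and 6.16%, and 7.41%. With only the groups compared 1 was higher with RA at 12 h (7.74% of all genes tested). With FPKM 5 were lower there (6.12%) and 0 higher in the knockout (2.52%). For the change of the RA effect, no filter gave 0 lower (1.66% of all genes tested) and quantile normalization 2 lower (2.29%). No variance trend gave 2 higher and 0 lower there (4.63% and 2.77%). Quantile normalization and no trend each gave 1 higher in the knockout (3.07% and 3.25% of all genes tested). In the time course, same-numbered libraries share only a number (r -0.84 to 0.42, over 0.1 in 7 of 30 pairs). The replicate block there gave 8 and 6, 10 and 10, 2 and 7, 7 and 7, and 1 and 0, and in the knockout 1 higher and 3 lower. Of all genes tested it called 20.8% and 18.8%, 23.7% and 25.2%, 8.85% and 5.97%, 20.7% and 11%, 3.08% and 2.04%, and 3.08% and 5.96%. Read depth per gene is not given as counts, so precision of low members such as Cbx8 and Phc3 rests on the replicates alone.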
